A study of Rattus norvegicus with 8 samples.

Results

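The miRNAs rno-miR-103-3p, rno-miR-107-3p, rno-miR-191a-5p, rno-miR-320-3p and rno-miR-361-5p, all often used as endogenous references, were followed on a rat miRNA array in prostatic urethra after laser surgery. They were taken by name, without use of any measured value, and make up 5 of the 758 rat miRNAs on the array. In male Sprague Dawley (SD) rats of 10 to 12 months, a thulium laser vaporized the urothelium through a scope inserted by way of the opened bladder, a procedure named TULP for the transurethral laser prostatectomy that it simulates. Sham rats had the abdominal incision alone, and neither group carried a genetic change. Tissue was taken 5 days after surgery, and 4 TULP and 4 sham rats gave 1 array each, called biological replicates in the labels. The labels of the TULP samples name trauma tissue in the title, the source and the treatment, but their description names sham surgery as the preceding operation. The groups below follow the titles.

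A miRNA is a short RNA that guides Argonaute proteins to messenger RNAs, mainly by pairing of its seed, bases 2 to 8 counted from the 5′ end. In qRT-PCR, a miRNA of interest is expressed relative to a reference RNA measured in the same extract. A reference is of use only if its own level per amount of RNA stays even between the samples compared. The study itself used the small nuclear RNA U6 as reference for its miRNA qRT-PCR. miR-103 and miR-107 are close relatives produced from hairpins within pantothenate kinase genes, and both are known for roles in insulin signalling and lipid metabolism. miR-191 is a broadly expressed miRNA made from a hairpin near that of miR-425. miR-320 is known for a maturation route that bypasses Drosha, the nuclear enzyme that excises most hairpins. miR-361 comes from the locus of Chm, the choroideremia gene.

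Mature sequences were found for 4 of the 5 members in the RefSeq table for build GRCr8, and rno-miR-320-3p is named only. They are shown because the relation between the first 2 bears on every ratio below. Capitals mark the seed and, near the 3′ end of the first 2, the base in which these differ.
rno-miR-103-3p: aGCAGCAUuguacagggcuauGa
rno-miR-107-3p: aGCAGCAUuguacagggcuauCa
rno-miR-191a-5p: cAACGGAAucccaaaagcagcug
rno-miR-361-5p: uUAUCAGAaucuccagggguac
rno-miR-103-3p and rno-miR-107-3p share their seed and differ at 1 of 23 bases, G22C, counted from the 5′ end with rno-miR-103-3p first. No other rat miRNA in the RefSeq table shared bases 2 to 7 with any of the 4.

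The array reads each miRNA with short DNA probes complementary to its 3′ part, so the single base difference lies under the probes of both. The longer probe of each is shown, with the discriminating base in capitals.
rno-miR-103-3p, probe of 18 bases: tCatagccctgtacaatg
rno-miR-107-3p, probe of 20 bases: tGatagccctgtacaatgct
The discriminating base is the second base of either probe. The first probe pairs with bases 6 to 23 of its miRNA and the other with bases 4 to 23. How far either probe also bound the other miRNA was not tested, and cross-binding and true co-variation of these relatives cannot be told apart here.

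In GRCr8 the hairpin gene Mir103a1 lies at chr10:20748474-20748559 within Pank3, and Mir103a2 lies at chr3:138963227-138963312 within Pank2. Mir107 lies at chr1:241750418-241750504 within Pank1. Mir191 lies at chr8:118142627-118142717 within Dalrd3, and Mir361 lies at chrX:82438463-82438532 within Chm. Mir320a lies at chr15:51926088-51926169, in no other annotated gene and 136 bases from Polr3d, a subunit gene of RNA polymerase III. The table gives gene bounds only, so introns and exons were not distinguished.

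All 8 arrays lay on 1 slide and were scanned once. Slide row 1 held sham replicate 4 with TULP replicates 1, 2 and 3, and row 2 held the other 4 arrays. Between 136 and 156 miRNAs were detected on an array, where detected means that at least 1 probe had a total signal over 3 times its error. Detected miRNAs summed to 21075 to 37357 units per sham array and 16787 to 19464 per TULP array, so the groups did not overlap. The 2 labelling spike-ins, RNAs added before dye labelling, ran the other way by 0.23 on the log2 scale, with SDs of 0.28 in sham and 0.08 in TULP. Their groups overlapped: sham replicate 4, at 8.69, lay above every TULP array, and sham replicates 1 and 3 were lowest, at 8.17 and 8.04. Lists of cell type markers were summed before normalization. There the median TULP minus sham of the 151 miRNAs detected on at least 4 arrays was -0.55 on the log2 scale. After quantile normalization 16.6% of these 151 were lower past an adjusted p of 0.05 in a limma fit. In either direction, 30.5% passed it. The 4 striated muscle miRNAs summed to 4710 to 9923 units in sham and 2152 to 3651 in TULP. After quantile normalization 3 of 4 were lower past the adjusted p, while rno-miR-206-3p stood at 0.25 (limma, adjusted p 0.795). The leukocyte list summed to 35.8 to 68.8 units in sham and 63.1 to 103 in TULP, with 2 of 5 higher and rno-miR-142-5p detected on no array. Of that list, rno-miR-150-5p ran the other way, at -0.59 (limma, adjusted p 0.0737). The erythroid list summed to 69.8 to 147 against 29.2 to 63.5, with 1 of 3 lower and rno-miR-144-3p detected on no array. The lower one was rno-miR-486, at -0.79 (limma, adjusted p 0.0498), while rno-miR-451-5p stood at -0.66 (limma, adjusted p 0.597). Neither the 8 epithelial miRNAs (603 to 827 against 287 to 782) nor the 2 smooth muscle miRNAs (797 to 1130 against 408 to 952) had a member past the adjusted p. Of the epithelial list, rno-miR-203a-3p was detected on 1 TULP array alone, and rno-miR-375-3p on 4 sham arrays and 1 TULP array. After quantile normalization its largest differences were -2.03 for rno-miR-375-3p (limma, adjusted p 0.0675) and -1.46 for rno-miR-200c-3p (limma, adjusted p 0.0753). There rno-miR-200b-3p and rno-miR-429 stood at 0.0006 and 0.01. The part of tissue makeup in the results below was not tested, and in bulk tissue fewer cells of a type and less RNA per cell cannot be told apart.

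A usable signal was given by 3 of the 5 reference miRNAs. rno-miR-103-3p, rno-miR-107-3p and rno-miR-361-5p were detected on 8 of 8 arrays, rno-miR-320-3p on 1 and rno-miR-191a-5p on none. Detection on all arrays was reached by 122 of the 758 rat miRNAs and detection on no array was the case for 573, or 75.6%. The reference role of the last 2 members therefore could not be examined in this tissue with this array, which says nothing of their level in the tissue.

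**Figure D1:**
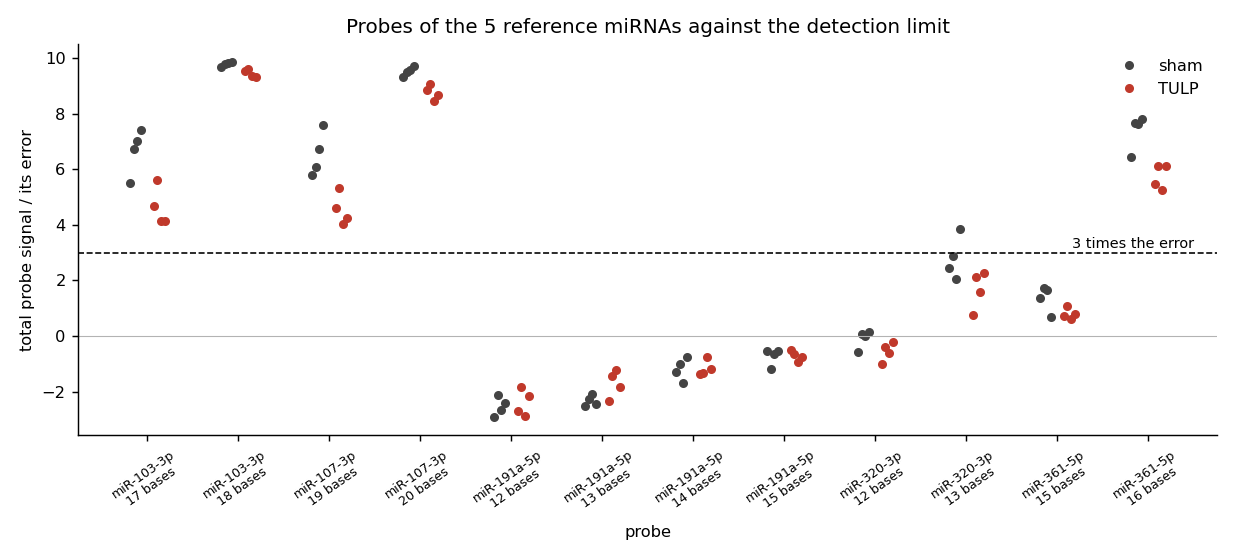
Total probe signal divided by its error for each probe of the 5 reference miRNAs, 1 point per array, sham in dark grey and TULP in red; the dashed line is the detection limit of 3 times the error. Both probes of miR-103-3p and miR-107-3p and the 16-base probe of miR-361-5p lie above the line on every array, the 4 probes of miR-191a-5p lie below 0 throughout, and 1 sham point of miR-320-3p lies above the line.

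rno-miR-191a-5p was read by 4 probes of 12 to 15 bases with 4 spots each. All 32 probe totals, 4 probes on 8 arrays, were below 0 after background subtraction, from -1.91 to -0.30 units. The mean of its 16 spots lay between -4.62 and -3.36 units on the 8 arrays. The median of the 182 negative control spots lay between 1.49 and 2.21 on the same arrays, so the spots of this miRNA were dimmer than the controls on each of the 8 arrays. Its longest probe, of 15 bases, is shown because it leaves the seed unpaired and covers bases 9 to 23.
rno-miR-191a-5p, probe of 15 bases: cagctgcttttggga
Among the 169 rat miRNAs whose longest probe had 14 to 15 bases, 27 (15.98%) were detected on any array. Among the 142 whose longest probe had 20 or more bases, 52 (36.6%) were. Probe lengths were chosen by the maker of the array, so these shares are a description and not a test of length.

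rno-miR-320-3p was read by a 12-base and a 13-base probe. The 13-base probe gave 2.85, 3.94, 2.42 and 5.15 units on sham arrays 1 to 4 and 1.07, 2.83, 2.16 and 2.93 units on TULP arrays 1 to 4. The highest value, on sham replicate 4, was 3.84 times its error and is the only one that passed the limit. Sham replicate 2 came next at 2.89 times its error. The stored total of this miRNA on sham replicate 4 was 49.5 units, far above the 5.15 of its only detected probe. The 12-base probe lay between -1.43 and 0.16 units and passed on no array. Among the 37 miRNAs whose longest probe had 13 or fewer bases, 8 (21.6%) were detected on any array.

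rno-miR-103-3p gave a total signal of 50.3, 72.7, 68.7 and 86.9 units on sham arrays 1 to 4 and 51.7, 52.4, 40.9 and 38.2 units on TULP arrays 1 to 4. These are intensities on a linear scale before any scaling between arrays, summed over its detected probes. The group means were 69.7 ± 15.1 (SD, n = 4) in sham and 45.8 ± 7.32 (SD, n = 4) in TULP. Sham replicate 1 fell within the TULP range, and the other 3 sham arrays lay above every TULP array. The coefficient of variation was 21.7% in sham and 15.97% in TULP.

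In replicate order, rno-miR-107-3p gave 36.7, 49.2, 49.4 and 64.7 units in sham and 34.1, 36.9, 27.1 and 27.7 units in TULP. The means were 49.99 ± 11.5 (SD, n = 4) and 31.5 ± 4.80 (SD, n = 4). As with its relative, sham replicate 1 alone reached into the TULP range, and sham replicate 4 was highest.

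rno-miR-361-5p was read by a 16-base probe, which pairs with bases 7 to 22, and a 15-base probe that passed the limit on no array.
rno-miR-361-5p, probe of 16 bases: gtacccctggagattc
The 2 probes differ by 1 base at the seed end, and whether that base accounts for their difference in detection was not tested. Its signal was 9.43, 15.6, 13.7 and 15.5 units in sham and 9.24, 10.1, 8.24 and 9.80 units in TULP. The means were 13.5 ± 2.88 (SD, n = 4) and 9.33 ± 0.80 (SD, n = 4), and sham replicate 1 again lay inside the TULP range. The coefficient of variation was 21.3% in sham and 8.59% in TULP, the latter the lowest of the 3 members. These values rest on the rebuilt total. The total that the scanner software stored for this miRNA was 1.88 to 3.87 times as high, at 28.9, 30.1, 31.0 and 29.2 units in sham and 20.3, 27.7, 31.9 and 19.9 units in TULP, and there TULP replicate 3 was the highest array. For rno-miR-103-3p and rno-miR-107-3p the stored and the rebuilt total were equal.

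The error that the scanner software attaches to each total amounted to a median of 9.20% of the signal for rno-miR-103-3p, 9.38% for rno-miR-107-3p and 15.9% for rno-miR-361-5p. Both probes of a miRNA moved alike. For rno-miR-103-3p, TULP minus sham was -0.64 on the log2 scale with the 17-base probe and -0.58 with the 18-base probe. For rno-miR-107-3p it was -0.64 with the 19-base and -0.66 with the 20-base probe. The 8 spots of 1 probe on 1 array varied by a median of 3.92% for the 18-base probe of rno-miR-103-3p and 12.6% for the 16-base probe of rno-miR-361-5p.

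The first comparison asks whether the references differed between TULP and sham before the arrays were scaled to each other. TULP minus sham was -0.59 (SE 0.24) for rno-miR-103-3p, -0.65 (SE 0.24) for rno-miR-107-3p and -0.51 (SE 0.23) for rno-miR-361-5p, as differences of log2 signal. The limma fit gave adjusted p-values of 0.0730, 0.0533 and 0.0970, adjusted over the 151 miRNAs detected on at least 4 arrays. None of the 3 passed, while 31.8% of the tested miRNAs were lower past the adjusted p of 0.05. The median difference of all tested miRNAs was -0.55, so the 3 members lay near the middle of a general lower signal. Leaving out sham replicate 1 took all 3 past the threshold: the differences were -0.74, -0.79 and -0.68, with adjusted p-values of 0.0185, 0.0163 and 0.0156. Without TULP replicate 1, rno-miR-107-3p alone passed, at -0.69 with an adjusted p of 0.0436. With the slide row in the fit, rno-miR-103-3p (-0.79, adjusted p 0.0309) and rno-miR-107-3p (-0.84, adjusted p 0.0264) passed and rno-miR-361-5p (-0.56, adjusted p 0.114) did not. Within rows 1 and 2 the differences were -0.86 and -0.72, -0.996 and -0.69, and -0.76 and -0.36, in the same order of members.

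**Figure D2:**
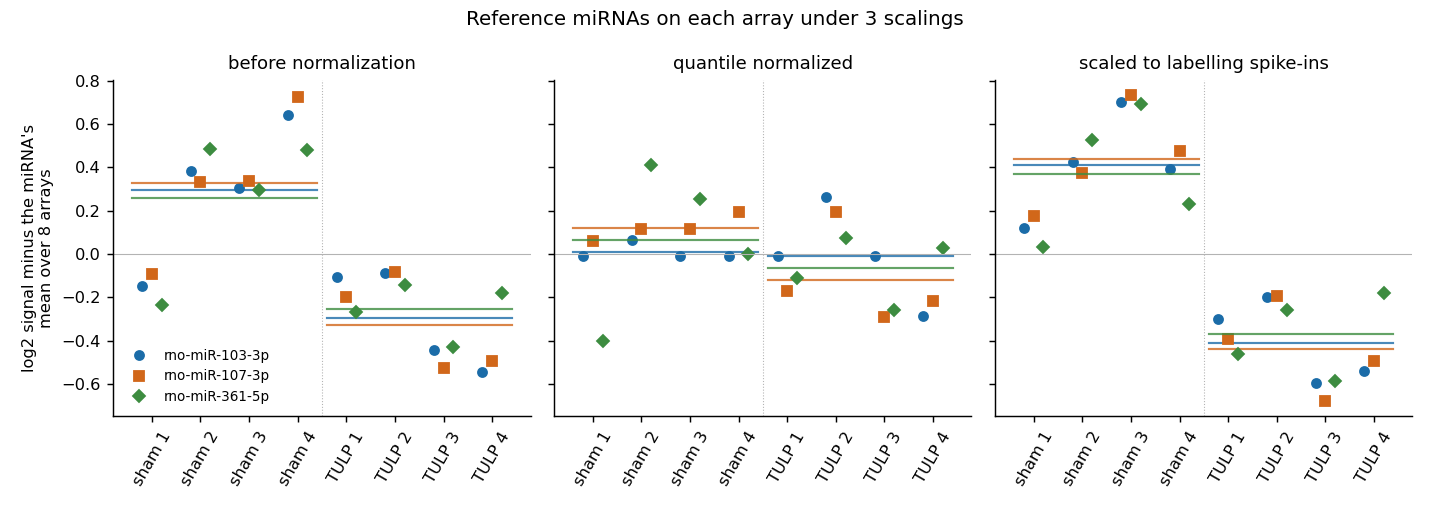
Log2 signal of the 3 detected reference miRNAs on each array, as deviation from each miRNA's own mean over the 8 arrays, under 3 scalings; horizontal lines are group means. The groups lie apart for all 3 miRNAs after scaling to the labelling spike-ins, overlap through sham replicate 1 before normalization, and overlap widely after quantile normalization.

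Quantile normalization, which gives every array the same distribution of values, removed most of this difference. For rno-miR-103-3p the normalized log2 signal was 5.82, 5.89, 5.82 and 5.82 in sham and 5.82, 6.09, 5.82 and 5.54 in TULP. Of the 8 values, 5 are equal because the miRNA held the same rank on those arrays. Its difference was -0.02, with a 95% confidence interval of -0.31 to 0.27 and an adjusted p of 0.955. Without TULP replicate 4 it turned to 0.07. With normexp background correction, run throughout with an offset of 50 added to every spot, it was -0.27 with an adjusted p of 0.0490, just past the threshold.

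For rno-miR-107-3p the normalized values were 5.40, 5.46, 5.46 and 5.54 in sham and 5.17, 5.54, 5.05 and 5.13 in TULP. TULP replicate 2 matched the highest sham array, and the other 3 TULP arrays lay below all sham arrays. The difference was -0.24, with an interval of -0.53 to 0.04 and an adjusted p of 0.180. Leaving out TULP replicate 2 moved it to -0.36 with an adjusted p of 0.0372.

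For rno-miR-361-5p the normalized values were 3.09, 3.91, 3.75 and 3.50 in sham and 3.39, 3.57, 3.24 and 3.52 in TULP. Here the sham arrays spanned the whole TULP range. The difference was -0.13, with an interval of -0.57 to 0.30 and an adjusted p of 0.702.

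None of the 3 members passed the adjusted p after quantile normalization, beside 30.5% of the 151 tested miRNAs, and none was called, where a call asks for an adjusted p under 0.05 and a change over 2-fold, beside 9.27%. All 3 intervals lay within a 2-fold change either way, as did those of 48.3% of the tested miRNAs. Within slide rows, the difference of rno-miR-103-3p was 0.09 in row 1 and -0.30 in row 2. It was -0.29 and -0.32 for rno-miR-107-3p and -0.10 and -0.06 for rno-miR-361-5p. Each row holds a single array of 1 of the groups, so these values carry no test.

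Scaling to the labelling spike-ins instead assumes an equal yield of labelling from equal input RNA and leaves the total free to differ. On that scale the 3 references were lower in TULP, with no overlap between the groups. rno-miR-103-3p had log2 values of 5.92, 6.23, 6.50 and 6.19 in sham and 5.50, 5.60, 5.20 and 5.26 in TULP. Its signal was 0.566-fold that of sham, with an interval of 0.420 to 0.762 and an adjusted p of 0.00505. For rno-miR-107-3p the fold was 0.543, with an interval of 0.402 to 0.732 and an adjusted p of 0.00350. For rno-miR-361-5p it was 0.598, with an interval of 0.436 to 0.819 and an adjusted p of 0.0111.

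This change was general. On the labelling scale 54.3% of the tested miRNAs were lower past the adjusted p, 49.7% had groups that did not overlap with TULP lower, and the median difference was -0.78, against -0.82, -0.88 and -0.74 for rno-miR-103-3p, rno-miR-107-3p and rno-miR-361-5p. None of the members was called lower on this scale, beside 31.8% of the tested miRNAs. Within slide rows 1 and 2 the difference was -0.76 and -0.96 for rno-miR-103-3p, -0.90 and -0.92 for rno-miR-107-3p and -0.67 and -0.60 for rno-miR-361-5p. With the slide row in the fit, rno-miR-361-5p no longer passed, at -0.63 with an adjusted p of 0.0558. Scaled to the hybridization spike-ins, which are added after labelling, the differences were -0.75, -0.81 and -0.67 and did not pass, with adjusted p-values of 0.202, 0.171 and 0.244 and wider intervals, such as -1.66 to 0.15 for rno-miR-103-3p. The call of lower or even thus rests on which scale is taken, and neither scale was tested against an independent measure of RNA amount.

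A ratio of 2 miRNAs within an array is the same under any scaling that uses 1 factor per array. The ratio of rno-miR-103-3p to rno-miR-107-3p varied by an SD of 0.07 on the log2 scale over the 8 arrays, a range of 1.13-fold. Of the 7381 pairs that the 122 miRNAs detected on all arrays can form, 1 had a lower SD, and the median SD was 0.55. TULP minus sham for this ratio was 0.06, with SDs of 0.06 in sham and 0.07 in TULP. It was -0.05 with normexp background correction and 0.22 after quantile normalization, which does not keep ratios. As the probes of this pair cover nearly the same bases and differ at 1 of those they share, the evenness of the ratio is not independent evidence from separate miRNAs.

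The ratios to rno-miR-361-5p do not share that limit. Log2 of rno-miR-103-3p over rno-miR-361-5p had an SD of 0.17 over the 8 arrays and a range of 1.44-fold, and stood at place 259 of the 7381 pairs. TULP minus sham was -0.08, with SDs of 0.11 in sham and 0.23 in TULP. TULP replicate 4 was farthest from the mean, at -0.36, and without it the difference was 0.03. Over all arrays it was -0.31 with the stored totals, -0.26 with normexp background correction and 0.11 after quantile normalization. For rno-miR-107-3p over rno-miR-361-5p the SD was 0.18, the range 1.47-fold and the place 292. Its TULP minus sham was -0.14, with SDs of 0.17 in sham and 0.18 in TULP, and with the stored totals it was -0.37. On the rebuilt signal, the groups overlapped for all 3 ratios, whereas they did not overlap for 31.8% of all pairs.

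**Figure D3:**
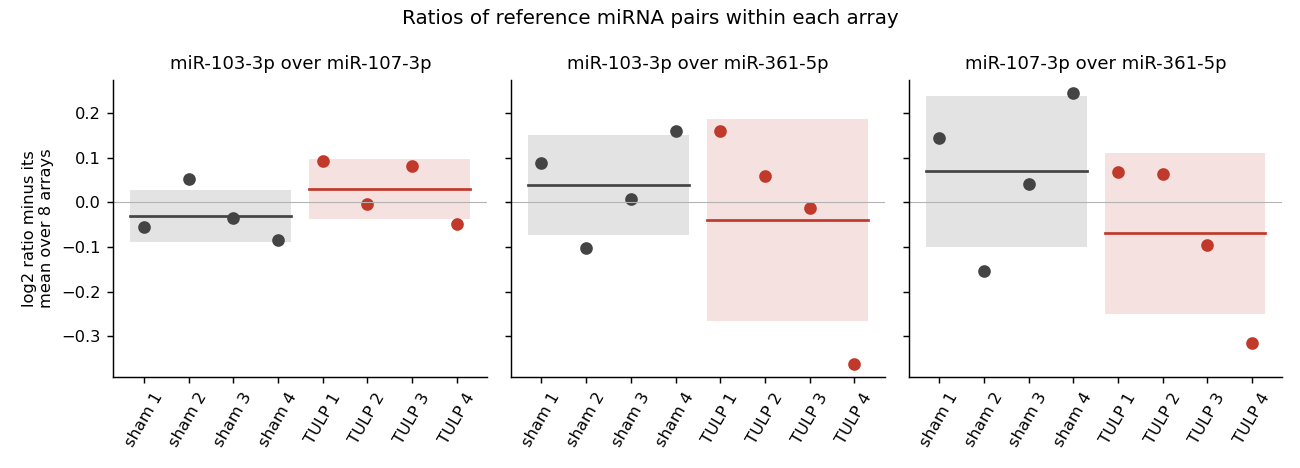
Log2 ratio of each pair of detected reference miRNAs on each array, before normalization, as deviation from its mean over the 8 arrays; lines are group means and bands 1 SD either way (n = 4). The ratio of the 2 relatives stays between -0.08 and 0.09, and the ratios to miR-361-5p reach -0.36 and -0.31 on TULP replicate 4.

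Among the 121 possible partners, the one whose ratio to a member varied least was the relative in the case of rno-miR-103-3p and rno-miR-107-3p. For rno-miR-103-3p, rno-miR-24-3p (SD 0.10) and rno-let-7i-5p (SD 0.11) came next. For rno-miR-107-3p, they were rno-let-7i-5p (SD 0.10) and rno-miR-324-5p (SD 0.11). The steadiest partner of rno-miR-361-5p was rno-miR-130a-3p (SD 0.13), before rno-miR-24-3p and rno-miR-140-5p (both 0.14).

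The place of the members in the order of all 122 miRNAs by SD over the 8 arrays depended on the scale. After quantile normalization, rno-miR-103-3p had an SD of 0.15 (place 13), rno-miR-107-3p one of 0.20 (place 23) and rno-miR-361-5p one of 0.26 (place 35), beside a median of 0.39. Before normalization, the SDs were 0.41, 0.44 and 0.36 (places 42, 48 and 23), beside a median of 0.51. On the labelling scale they were 0.48, 0.51 and 0.46 (places 41, 54 and 37), beside 0.58. All 3 members had an SD below the median on each of these 3 scales, and none was among the 5 most even after quantile normalization.

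**Figure D4:**
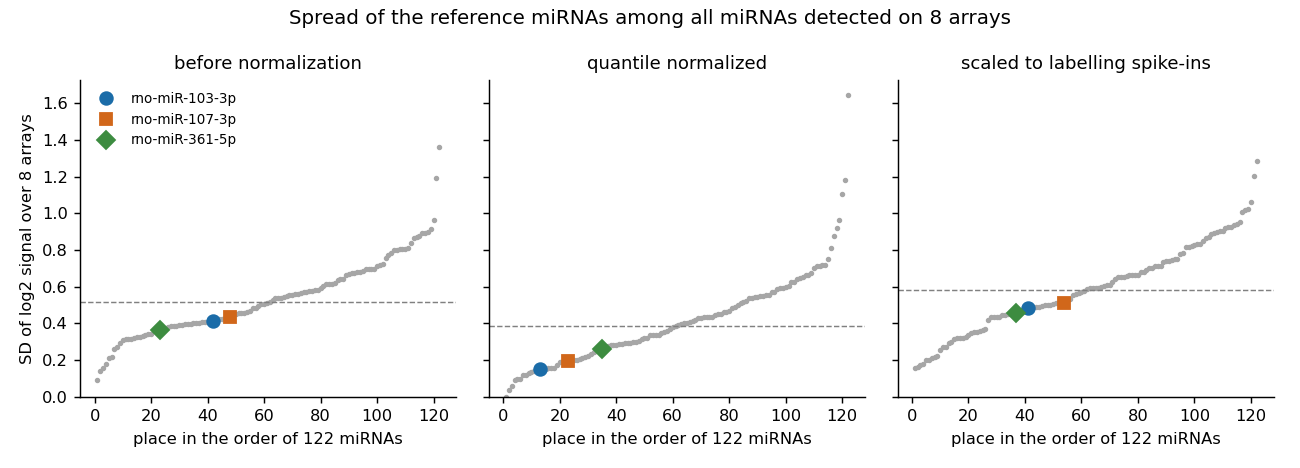
SD of log2 signal over the 8 arrays for each of the 122 miRNAs detected on all arrays, in rising order, under 3 scalings; the dashed line is the median and the large symbols are the 3 detected reference miRNAs. All 3 lie left of the median in each panel, at places 13, 23 and 35 after quantile normalization.

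The 5 miRNAs with the lowest SD after quantile normalization were rno-let-7f-5p, rno-let-7i-5p, rno-miR-23a-3p, rno-let-7e-5p and rno-let-7d-5p, 4 of them of the let-7 family, known for high expression in differentiated tissue. Their SDs ran from 0 to 0.10. The SD of 0 of rno-let-7f-5p means that it held the same rank on all 8 arrays.

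The spread within groups had a different order. After quantile normalization, rno-miR-103-3p varied by an SD of 0.04 among sham arrays and 0.23 among TULP arrays, and rno-miR-107-3p by 0.06 and 0.22. For rno-miR-361-5p it was 0.35 among sham and 0.15 among TULP arrays. The pooled SD within groups placed rno-miR-103-3p 26th, rno-miR-107-3p 24th and rno-miR-361-5p 63rd of the 122.

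Using the members as the reference changed which other miRNAs were called. With the mean log2 signal of all 5 members subtracted, 16 of 148 other miRNAs were called (10.8%), 7 higher and 9 lower in TULP. In that mean, rno-miR-191a-5p on all arrays and rno-miR-320-3p on 7 stand at the floor, a constant, so it takes up only part of the shift of the other 3. With the mean of the 3 detected members, chosen after their detection was seen, 11 of 148 were called (7.43%), 9 higher and 2 lower. Of these 11, 10 were among the 14 called after quantile normalization, of which 8 were higher and 6 lower. Single arrays moved these counts: the 16 became 9 without sham replicate 3, the 11 became 18 without TULP replicate 1, and the 14 became 9 without TULP replicate 3 and 21 without TULP replicate 1. With normexp background correction and its offset of 50 per spot, the 14 became 1. The part of the offset in this fall was not tested.

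With a single member as reference, the count ran from 10 to 15 of 150 tested. rno-miR-103-3p gave 10 calls (6.67%), 9 of them higher. rno-miR-107-3p gave 15 calls (10%), 14 of them higher. rno-miR-361-5p gave 13 calls (8.67%), 8 of them higher. The split between higher and lower calls thus moved with the reference, as the median difference of all tested miRNAs did, from 0.08 with rno-miR-107-3p to -0.05 with rno-miR-361-5p.

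Of the miRNAs taken as examples, the 3 qRT-PCR targets lost their call when the 3 detected members served as reference. By qRT-PCR, the paper reports the miRNAs it tested as significantly lower in TULP, the same direction as on its array. Against the 3 detected members all 3 targets stayed lower in TULP, each by under 2-fold. rno-miR-204-5p, a miRNA known from retinal pigment epithelium and other epithelia, stood at -1.14 (adjusted p 0.00912) after quantile normalization. Against the 3 members it stood at -0.90 (adjusted p 0.0279), which is under 2-fold. Against the mean of all 5 members it kept its call, at -1.07 (adjusted p 0.00801). rno-miR-30e-3p went from -1.11 (adjusted p 0.0230) to -0.73 (adjusted p 0.0521). rno-miR-29c-5p was detected on 4 sham and no TULP arrays, so its fitted change is set by the floor. It was called after quantile normalization and not against the members, where it passed the adjusted p (0.00924) but not 2-fold (-0.71). rno-miR-21-5p, which is known to rise in injured tissue, was 1.76 higher after quantile normalization (adjusted p 0.000785) and 1.87 higher against the members (adjusted p 0.000230). rno-miR-181b-5p was the other miRNA that lost its call, going from -1.18 to -0.90. It stood at the floor on all TULP arrays, so its fitted change is also set by the floor. rno-miR-1949 was the one that gained a call.

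A list of 23 further miRNAs used as references elsewhere gave a similar picture. Of these, 17 were tested and 4 were detected on no array. After quantile normalization 0 were called, beside 9.27% of all tested miRNAs. While 16.6% of all tested miRNAs were lower past the adjusted p, 3 of the 17 were lower past it and none higher. They were rno-miR-345-5p at -0.59 (adjusted p 0.0161), rno-miR-30c-5p at -0.71 (adjusted p 0.00313) and rno-miR-30b-5p at -0.75 (adjusted p 0.0257), the last 2 of the miR-30 family. Without TULP replicate 1 the same 3 passed, and so did rno-miR-26a-5p at -0.52 (adjusted p 0.0161) and, as the only higher one, rno-miR-16-5p at 0.32 (adjusted p 0.0404). The median of the list was -0.05, beside -0.02 for all tested miRNAs. On the labelling scale 12 of the 17 were lower past the adjusted p, beside 54.3% of all tested miRNAs. Of the 17, 4 were called lower, beside 31.8%. The median of the list was -0.78 there and equalled that of all tested miRNAs, because the same miRNA, rno-miR-152-3p, stood in the middle of both.

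The 3 listed miRNAs with the lowest SD after quantile normalization were rno-miR-23a-3p (SD 0.06, place 3), rno-miR-24-3p (SD 0.12, place 8) and rno-miR-22-3p (SD 0.15, place 16). rno-miR-23a-3p and rno-miR-24-3p, which can arise from the same primary transcript, both stood ahead of rno-miR-103-3p. TULP minus sham was 0.07 for rno-miR-23a-3p, with an interval of -0.11 to 0.24. It was 0.13 for rno-miR-24-3p, with an interval of -0.09 to 0.35, and -0.05 for rno-miR-22-3p, with an interval of -0.34 to 0.24.

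**Figure D5:**
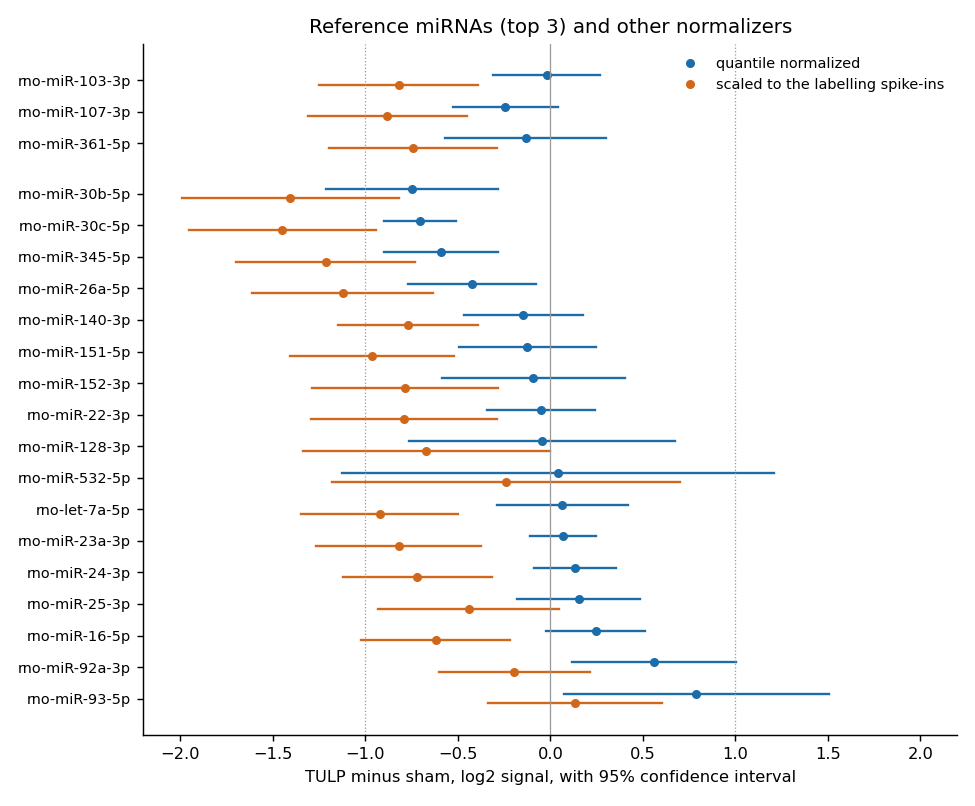
TULP minus sham of log2 signal with its 95% confidence interval for the 3 detected reference miRNAs (top) and the 17 tested further normalizers, quantile normalized in blue and scaled to the labelling spike-ins in orange; dotted lines mark 2-fold. The intervals of the 3 members include 0 after quantile normalization and lie below 0 on the labelling scale.

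The opposite strands of the members' hairpins were hardly seen. rno-miR-103-1-5p, rno-miR-103-2-5p, rno-miR-107-5p, rno-miR-320-5p and rno-miR-361-3p were detected on no array, and neither were rno-miR-191b and rno-miR-425-3p. rno-miR-191a-3p was detected on TULP replicate 4 alone, at 2.01 units. rno-miR-425-5p, from the hairpin beside that of miR-191, was detected on sham replicate 4 at 4.12 units and on TULP replicates 2 and 3 at 4.99 and 4.31 units. Too few arrays detected either for a fit.

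The miRNAs whose quantile normalized signal ran most like a member's over the 8 arrays were sought among 147 tested miRNAs outside the members. They were rno-let-7b-5p (Pearson's r 0.66) and rno-miR-145-5p (0.64) for rno-miR-103-3p. They were rno-miR-466b-2-3p (0.76) and rno-miR-345-5p (0.76) for rno-miR-107-3p, and rno-miR-324-5p (0.86) and rno-miR-28-5p (0.84) for rno-miR-361-5p. These are the highest of 147 values over 8 arrays that share their slide, labelling and normalization, and they are given as a description.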

How the data were processed

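Prostatic urethra RNA of 4 sham and 4 TULP rats was hybridized to 1-colour arrays. Per the file headers and the submitters' processing notes, Agilent Feature Extraction 10.7.1.1 made the values from the images, and the deposited intensity values are background subtracted on a linear scale and not normalized between arrays. A further table from the authors holds log2 values of 780 features, with the same sorted values in all 8 columns. The stored total per miRNA, which exceeded the detected probes for some miRNAs (1.88 to 3.87 times for rno-miR-361-5p), was replaced by the sum over probes above 3 times their error, 0.1 where there was none. Signals of 758 rat miRNAs were quantile normalized, floored at the lowest signal of a detected miRNA (1.94, the median over arrays) and fitted in limma 3.58.1 (R 4.3.3), with Benjamini-Hochberg adjustment over the 151 miRNAs detected on at least 4 arrays. Tested on simulated data for this comparison with 151 miRNAs, 91.6% of changes of 2 on the log2 scale and 82.5% of changes of 1.5 were called. No smaller change was simulated. The simulation added independent noise to normalized values and did not repeat the floor or the normalization, so it cannot show what those steps do. With 4 arrays a group, precision is limited by their number. Alternatives were other scalings, signals, filters, blocks and leaving out each array. By rule, the named miRNAs were the members, their detected strands and relatives, further normalizers past the adjusted p or among the 3 most even, the 2 most like each member, the 5 most even and 4 scaling examples. Undetected strands and markers, steadiest partners and miRNAs that gained or lost a call were named after their values were seen. So were markers that ran against their list and the other markers given by name. Members and lists were chosen with earlier results of these data known.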

Additional observations from a re-analysis of the deposited data

Results flagged for a closer look

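After quantile normalization, sham replicate 2 stood apart from the other 3 sham arrays for rno-miR-103-3p, at 5.89 against 5.82 on each of the others, so its gap to the nearest was 1 time the whole range of the group. The 3 equal values are equal ranks, and the gap is 0.07 on the log2 scale. Of 24 groups of 4 arrays examined this was the 1 that stood out. Chance alone flags about 1 in 20 such groups.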

How the results depend on the processing

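The 3 differences after quantile normalization kept their direction and stayed short of the threshold in all settings run, with these exceptions. They passed it when scaled to the labelling spike-ins (-0.82, -0.88 and -0.74 for rno-miR-103-3p, rno-miR-107-3p and rno-miR-361-5p), and rno-miR-103-3p also with normexp background correction (-0.27, adjusted p 0.0490). rno-miR-361-5p turned to 0.0057 on the scale of the 75th percentile. Leaving out 1 array gave -0.11 to 0.07 for rno-miR-103-3p (0.071 without TULP replicate 4), -0.36 to -0.19 for rno-miR-107-3p (past the threshold at -0.36, without TULP replicate 2) and -0.28 to -0.02 for rno-miR-361-5p. On the labelling scale these ranges were -0.92 to -0.72, -0.97 to -0.78 and -0.86 to -0.64, all past the threshold, whereas rno-miR-361-5p lost it with the slide row as a block (-0.63) or the stored totals (-0.52). Before normalization they were -0.74 to -0.48, -0.79 to -0.52 and -0.68 to -0.44, and with the slide row as a block rno-miR-103-3p (-0.79) and rno-miR-107-3p (-0.84) passed.

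The ratio of rno-miR-103-3p to rno-miR-107-3p moved to -0.047 with normexp and 0.22 after quantile normalization, that of rno-miR-103-3p to rno-miR-361-5p to -0.31 with stored totals, -0.26 with normexp and 0.11 after quantile normalization, and that of rno-miR-107-3p to rno-miR-361-5p to -0.37 with stored totals. Leaving out 1 array gave 0.04 to 0.09, -0.14 to 0.03 and -0.21 to -0.06. The SD over the arrays rose on the scale of the hybridization spike-ins to 0.58, 0.60 and 0.65, and before normalization and on the labelling scale to 0.41 and 0.48 for rno-miR-103-3p and 0.44 and 0.51 for rno-miR-107-3p. Leaving out 1 array gave SDs of 0.10 to 0.17, 0.18 to 0.21 and 0.22 to 0.28.

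The 16 calls against the mean of 5 members became 10 with rno-miR-103-3p alone, 8 with stored totals and 9 to 22 without 1 array. The 11 calls against the 3 detected members became 9 to 18 (18 without TULP replicate 1). rno-miR-191a-5p and rno-miR-320-3p alone could give no reference value. Of the further normalizers, 3 past the adjusted p became 6 before normalization, 12 on the labelling scale, 5 on the 75th percentile scale, 1 with stored totals, 1 with no filter and 2 to 5 without 1 array. Over all tested miRNAs, the 14 calls after quantile normalization became 34 before normalization, 53 on the labelling scale, 36 on the hybridization scale, 1 with normexp, 8 when detection on all arrays was asked for, 4 with no filter and 9 to 21 without 1 array. The reference of 3 members, and the alternatives on it, on the labelling and unnormalized scales and on the further normalizers, were chosen after seeing the data. The cause of each move was not tested.

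Same-numbered arrays deviated together with correlations of -0.10 to 0.27, so the numbers were not taken to pair the animals. With the replicate block the calls against the mean of 5 members went from 16 to 15, and the differences of the 3 members stayed -0.02, -0.24 and -0.13 after quantile normalization, with adjusted p-values of 0.949, 0.257 and 0.666; the block changed no call of a member. By the methods' t-test on the deposited values, 17 of 151 miRNAs passed the unadjusted threshold with over 2-fold change and 13 after Benjamini-Hochberg adjustment, no member among them; rno-miR-107-3p passed the unadjusted p alone, at -0.27, under 2-fold. Signal limits rno-miR-361-5p, at 5.25 to 7.82 times its error, and gives no value for rno-miR-191a-5p and 1 for rno-miR-320-3p.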
